A study of Citrus unshiu with 6 samples.

Results

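ATP-binding cassette (ABC) transporters were followed in the peel of Satsuma mandarin fruit. A gene was taken as a member when the description of its best protein match contained "ABC transporter", "pleiotropic drug" or "multidrug resistance-associated". This rule found 87 of the 23099 genes with a value in the table, 0 of them by the last phrase. RNA came from control peel (CK) and from peel with roughing disorder (RD), a defect in which the surface of the fruit is coarse and the peel is thick. Both peels were collected during cell division (30 days after full bloom, DAFB), during cell enlargement (80 DAFB), and at maturity (170 DAFB). All trees were of the cultivar "Yamashitabeni wase" on trifoliate orange rootstock, and had the same age. RD was brought about by strong fruit removal at fruit set with upward fruits kept, whereas CK trees were left with their crop, so that fruit load, fruit position, and the disorder cannot be told apart. Each of the 6 libraries (CK30, RD30, CK80, RD80, CK170, and RD170) was 1 pool of 3 peel samples, without a replicate. Values are therefore given without an error or a test, and each difference is one between 2 pools.

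ABC transporters are membrane pumps that use ATP to carry lipids, hormones, and secondary metabolites across membranes. In plants they fall into subfamilies named by letters. Many half-size pumps of subfamily G export the monomers of cutin, wax, and suberin that seal the epidermis, and the full-size pumps of the same subfamily, called pleiotropic drug resistance (PDR) proteins, carry defence compounds and hormones. Subfamily B holds auxin transporters, and subfamily C, also known as multidrug resistance-associated proteins, loads conjugates and pigments into the vacuole. Proteins of subfamily F have ATP-binding domains but no membrane domain, and are linked to translation.

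Members are named here after their best match, so that ABCG11-like stands for a gene described as similar to ABC transporter G family member 11. Subfamily G had 40 members, of which 16 were described as PDR proteins, B and C had 18 each, F had 6, A had 2, and I had 1. The remaining 2 genes matched a single protein of Medicago truncatula whose description gives no subfamily. Below, PDR genes are only the 16 with that description, and size was not checked for members named by letter and number. The best match was a Citrus protein for 84 members. As 16 members shared their best match with another member, in 8 pairs, reads may have been divided between close copies or between parts of 1 gene. Among the genes described here this concerns both ABCC2-like genes (Cs2g09545 and Cs2g09550), both ABCB20-like genes, both ABCG22-like genes, ABCC10-like Cs9g18660 (shared with the weakly expressed Cs9g18650), and the pair that matched the Medicago protein. All values are FPKM, that is, fragments divided by the length of the transcript and by the number of mapped reads, so that levels can be set side by side between genes.

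Most members were weakly expressed, and a few carried most of the signal. An FPKM of at least 1 in some library was reached by 62 members, and in all 6 libraries by 38. The other 25 stayed below 1 throughout, among them 17 of the 40 in subfamily G. In single libraries, between 44 members (CK30) and 57 (RD80) reached an FPKM of 1. The lowest number was thus found in young CK peel, where 27 of the 62 had their lowest value. Over all genes, CK30 also had the fewest at an FPKM of 1 (16026, and up to 17155 in RD30). The share of all genes with their lowest value in CK30 was not counted. The highest value of a member was most often in CK170 (20 of 62, 32.3%), which was also the case for all genes (30.5%).

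**Figure D1:**
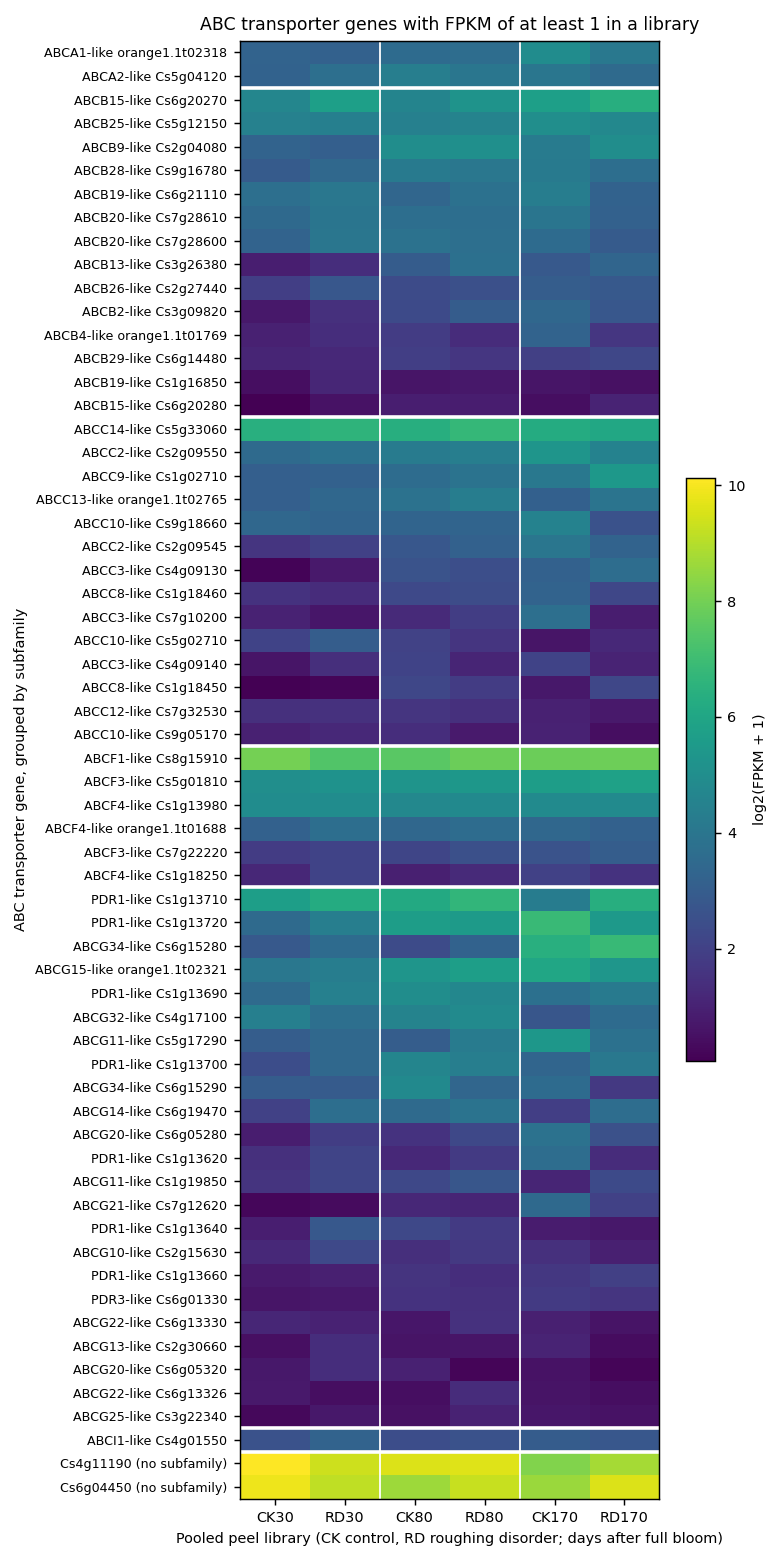
Level of the 62 ABC transporter genes that reached an FPKM of 1, as log2(FPKM + 1), with 1 row per gene (grouped by subfamily and ordered by mean level) and 1 column per pooled library. The 2 genes without a subfamily at the bottom and ABCF1-like are brightest in every library, and many rows of subfamilies B, C, and G are darkest in CK30.

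The most abundant members were the 2 genes that matched the Medicago protein. Cs4g11190 had an FPKM of 1116 (CK30), 651 (RD30), 774 (CK80), 803 (RD80), 299 (CK170), and 430 (RD170). Cs6g04450 had 923, 572, 404, 622, 389, and 782 in the same order. Their identity as ABC transporters rests on that 1 description, and sums over the family are given without them. ABCF1-like Cs8g15910, of the subfamily linked to translation, followed with 262, 168, 186, 234, 231, and 241. ABCC14-like Cs5g33060 had 84.2, 95.2, 82.0, 109, 74.3, and 67.2. These 2 genes did not differ by 2-fold between any CK and RD pair or between successive stages. The remaining members of the 10 with the highest mean were PDR1-like Cs1g13710 and Cs1g13720, ABCB15-like Cs6g20270, ABCG34-like Cs6g15280, ABCF3-like Cs5g01810, and ABCG15-like orange1.1t02321.
The FPKM of all 85 members with a subfamily summed to 736 (CK30), 810 (RD30), 920 (CK80), 1073 (RD80), 1203 (CK170), and 1135 (RD170). Subfamily G went from 147 in CK30 and 226 in RD30 to 413 in CK170 and 374 in RD170, and subfamily B from 100.01 and 150 to 201 and 204. Subfamily F, by contrast, had 335 (CK30), 251 (RD30), 327 (CK170), and 342 (RD170).

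RD and CK peel were compared at each stage by counting members with a ratio of at least 2-fold and an FPKM of at least 1 in the higher library. A member was counted as expressed at a stage when it had an FPKM of at least 1 in either peel. At 30 DAFB, 14 of 54 expressed members were higher in RD peel (25.9%), beside 25.6% of all genes. None was lower, beside 6.34% of all genes. The median log2 ratio of the members was 0.54, and that of all expressed genes was 0.48. The share of higher members was thus close to the background at this stage. The median of all genes with an FPKM of at least 1 in both libraries was 0.43. When ratios were taken relative to it, 7 of the 54 members were higher and 5 were lower. Of all 17419 expressed genes, 2421 were then higher and 1873 lower, so that both member counts were close to the background.
At 80 DAFB, 4 of 58 were higher (6.90%, beside 5.20% of all genes) and 3 were lower (5.17%, beside 4.86%), with a median of 0.17 beside 0.10. At 170 DAFB, 8 of 55 were higher (14.5%, beside 8.14% of all genes) and 14 were lower (25.5%, beside 10.1%), with a median of -0.21 beside -0.11. Both shares were larger than the background at maturity. In total 34 of the 62 members differed 2-fold at some stage (54.8%, beside 42.8% of all genes that reached an FPKM of 1), 26 of them at 1 stage, 7 at 2 stages, and 1 at all 3 stages. Of all 18748 genes that reached an FPKM of 1, 321 differed 2-fold at all 3 stages, so that the 1 member is near the background.

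**Figure D2:**
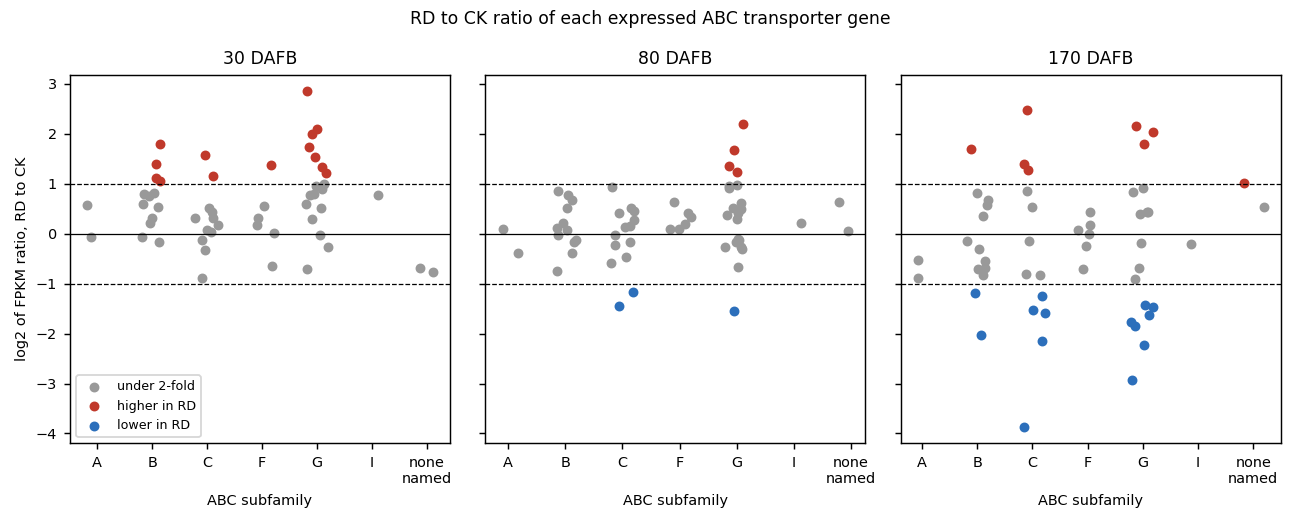
Log2 ratio of RD to CK for each expressed ABC transporter gene at 30, 80, and 170 DAFB, by subfamily. Each point is 1 gene, dashed lines mark 2-fold, and red and blue points are higher and lower in RD peel. No blue point is present at 30 DAFB, 7 coloured points are present at 80 DAFB, and 14 blue and 8 red points at 170 DAFB.

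Members counted at 30 DAFB came from subfamily G (7 of 18 expressed), B (4 of 13), C (2 of 12), and F (1 of 6). These shares were 38.9%, 30.8%, 16.7%, and 16.7%, beside 25.6% of all genes. At 80 DAFB all 4 higher members belonged to subfamily G, and the lower ones were 1 of G and 2 of C. Of expressed G members 19% were higher, beside 5.20% of all genes. The lower shares were 4.76% of G and 14.3% of C, beside 4.86%. At 170 DAFB, subfamily G had 3 higher and 7 lower members of 18, C had 3 and 5 of 13, and B had 1 and 2 of 13. The higher shares of G, C, and B were 16.7%, 23.1%, and 7.69%, beside 8.14% of all genes. Their lower shares were 38.9%, 38.5%, and 15.4%, beside 10.1%. Another higher member was Cs6g04450, just past the limit with 2.01-fold. None of the 6 members of subfamily F differed 2-fold at 80 or 170 DAFB.
The largest ratios at 30 DAFB were in PDR1-like Cs1g13640, ABCG13-like Cs2g30660, ABCG14-like Cs6g19470, ABCB19-like Cs1g16850, ABCG20-like Cs6g05280, and ABCC3-like Cs4g09140. Relative to the median of all genes, these 6 and ABCG10-like Cs2g15630 remained at least 2-fold higher. The 5 members that were then lower were Cs4g11190, Cs6g04450, ABCF1-like Cs8g15910, ABCG32-like Cs4g17100, and ABCC3-like Cs7g10200.

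Transporters of cuticle lipids did not move as 1 group. ABCG11 is required in Arabidopsis for export of wax and cutin to the surface. ABCG11-like Cs5g17290 had an FPKM of 7.11 (CK30), 10.1 (RD30), 7.05 (CK80), 18.1 (RD80), 40.4 (CK170), and 13.03 (RD170). It was higher in RD peel at 80 DAFB (log2 ratio 1.36) and lower at 170 DAFB (-1.63), where CK170 stood above all other libraries. The other ABCG11-like gene, Cs1g19850, had 1.97 (CK30), 3.43 (RD30), 3.76 (CK80), 5.71 (RD80), 1.17 (CK170), and 4.04 (RD170). It was higher in RD peel at maturity (log2 ratio 1.79), with its lowest value in CK170. The FPKM of Cs5g17290 was thus 34.6 times that of Cs1g19850 in CK170, and between 1.88 and 3.61 times in the other 5 libraries.
ABCG32 exports cutin precursors in Arabidopsis. ABCG32-like Cs4g17100 had 20.3 (CK30), 12.4 (RD30), 22.9 (CK80), 28.0 (RD80), 5.80 (CK170), and 10.9 (RD170). Its ratio was under 2-fold at every stage, and both peels were lowest at maturity. ABCG13, needed for the cuticle of Arabidopsis petals, had 1 match: ABCG13-like Cs2g30660 had 0.38 (CK30), 1.61 (RD30), 0.51 (CK80), 0.55 (RD80), 1.08 (CK170), and 0.30 (RD170). All of its values were low, and the direction at 30 DAFB (log2 ratio 2.08) was opposite to that at 170 DAFB (-1.85).

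ABCG20 takes part in suberin formation in Arabidopsis. ABCG20-like Cs6g05280 had 0.82 (CK30), 2.73 (RD30), 1.89 (CK80), 3.66 (RD80), 13.4 (CK170), and 4.80 (RD170). It was higher in RD peel at 30 DAFB (log2 ratio 1.74) and lower at 170 DAFB (-1.48). Another ABCG20-like gene, Cs6g05320, had 0.62 in CK30 and 1.57 in RD30, and at most 0.97 in the other libraries. ABCG15-like orange1.1t02321, whose rice namesake is needed for the cuticle of the anther, had 15.6, 19.2, 38.5, 51.3, 63.4, and 39.5 in CK30, RD30, CK80, RD80, CK170, and RD170. It did not differ 2-fold between the peels. ABCG21-like Cs7g12620 had 0.17 (CK30), 0.28 (RD30), 1.26 (CK80), 1.12 (RD80), 10.3 (CK170), and 3.02 (RD170). At maturity it was lower in RD peel (log2 ratio -1.76).

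**Figure D3:**
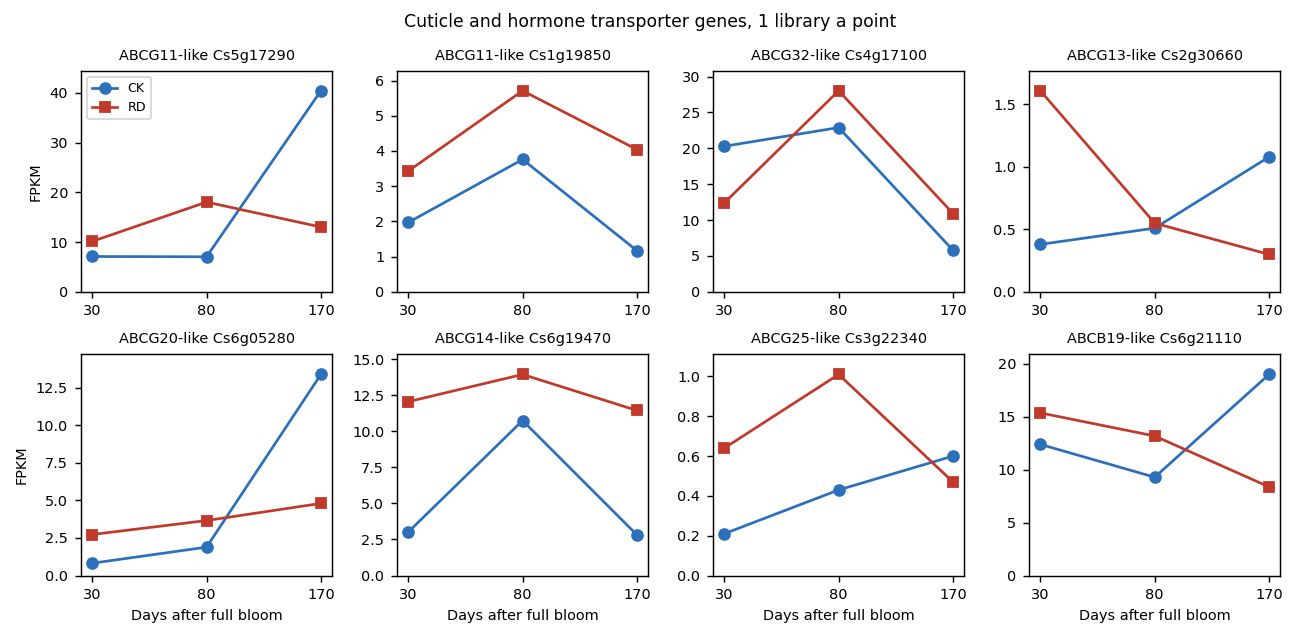
FPKM of 8 ABC transporter genes named after carriers of cuticle lipids or hormones in CK peel (blue circles) and RD peel (red squares) at 30, 80, and 170 DAFB. Each point is 1 pooled library, and each panel has its own axis from 0. CK170 is the highest value for Cs5g17290, Cs6g05280, and Cs6g21110, and Cs6g19470 is lowest in CK30 and CK170.

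Synthesis genes of wax and cutin, a list of 32 genes by description, had 25 expressed members at 30 DAFB, of which 10 were higher and 2 lower, 24 at 80 DAFB (3 higher, 1 lower), and 23 at 170 DAFB (6 higher, 3 lower). The higher shares were 40%, 12.5%, and 26.1%, beside 25.6%, 5.20%, and 8.14% of all genes, and the lower shares 8%, 4.17%, and 13%, beside 6.34%, 4.86%, and 10.1%. Their median log2 ratios were 0.68, 0.26, and 0.20. The typical gene was itself shifted upward in RD peel at 30 DAFB (median log2 ratio 0.43). With that shift subtracted, 2 of the 25 synthesis genes were higher and 2 lower. The same step left 2421 higher and 1873 lower among the 17419 genes expressed at this stage. The larger share of higher synthesis genes in young peel was thus not kept. Subtracting the median shift of each later stage did not change the counts at 80 and 170 DAFB. Of lipid-transfer proteins, which shuttle lipids outside the membrane, 10 were expressed at 30 DAFB (0 higher, 1 lower), 11 at 80 DAFB (2 higher, 0 lower), and 9 at 170 DAFB (2 higher, 0 lower).

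Among transporters named after hormone carriers, ABCG14-like Cs6g19470 was higher in RD peel at the first and the last stage. ABCG14 moves cytokinin from root to shoot in Arabidopsis. Its FPKM was 3.02 (CK30), 12.1 (RD30), 10.8 (CK80), 13.95 (RD80), 2.82 (CK170), and 11.45 (RD170). The 3 RD libraries and CK80 lay between 10.8 and 13.95, whereas CK30 and CK170 were far lower. RD peel was 3.99-fold higher at 30 DAFB and 4.06-fold higher at maturity, and 1.30-fold higher in between.
ABCG25 exports abscisic acid in Arabidopsis. ABCG25-like Cs3g22340 had 0.21 (CK30), 0.64 (RD30), 0.43 (CK80), 1.01 (RD80), 0.60 (CK170), and 0.47 (RD170). It was just above the limit of expression in RD80 only, where its log2 ratio was 1.23.
ABCB19 is an auxin exporter in Arabidopsis, and ABCB20 is a related auxin carrier. ABCB19-like Cs6g21110 had 12.4 (CK30), 15.4 (RD30), 9.28 (CK80), 13.2 (RD80), 18.98 (CK170), and 8.37 (RD170). It was lower in RD peel at maturity (log2 ratio -1.18). A second ABCB19-like gene, Cs1g16850, had 0.34 in CK30 and 1.18 in RD30, and at most 0.65 in the later libraries. The ABCB20-like genes Cs7g28600 and Cs7g28610, which share their best match, did not differ 2-fold: across the stages the former had log2 ratios of 0.79, -0.13, and -0.70, and the latter of 0.52, -0.03, and -0.83. ABCB4-like orange1.1t01769, named after an auxin carrier of Arabidopsis roots, had 0.96 (CK30), 1.61 (RD30), 2.57 (CK80), 1.53 (RD80), 8.62 (CK170), and 2.11 (RD170), with a log2 ratio of -2.03 at maturity.
Auxin carriers of other families (PIN and AUX proteins) had 5 expressed genes at 30 DAFB (3 higher, 0 lower), 5 at 80 DAFB (2 higher, 0 lower), and 3 at 170 DAFB (0 higher, 1 lower). The background of higher genes was 25.6% in young peel and 5.20% at 80 DAFB, and a list of this size is too short to be read against it.

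PDR1 exports an antifungal terpene in a wild tobacco. PDR1-like genes had 12 members, and 9 of them carried neighbouring gene numbers from Cs1g13620 to Cs1g13720. These 9 held between 98.4% and 99.1% of the summed FPKM of the 16 members described as PDR proteins in each library. Of the 9, 7 reached an FPKM of 1. Their sum was 79.6 (CK30), 137 (RD30), 182 (CK80), 198 (RD80), 171 (CK170), and 165 (RD170). The sums of the peels were close at the later stages. At 80 DAFB none of the 8 expressed genes described as PDR proteins differed 2-fold, whereas at maturity the genes behind the sums differed.
Cs1g13710 had 50.7 (CK30), 76.1 (RD30), 70.7 (CK80), 100.5 (RD80), 18.5 (CK170), and 82.5 (RD170). Among the genes described as PDR proteins, it was the highest in every library other than CK170. Its level was higher in RD peel at maturity (log2 ratio 2.16). Cs1g13720 had 10.6 (CK30), 19.6 (RD30), 49.5 (CK80), 45.4 (RD80), 116 (CK170), and 43.2 (RD170). It was lower in RD peel at maturity (log2 ratio -1.42). The FPKM of Cs1g13720 was 6.24 times that of Cs1g13710 in CK170, and 0.52 times in RD170, as it was below 1 in the other 4 libraries (0.21 to 0.70).
Cs1g13620 also stood out in CK170, with 11.6 there, 1.52 in RD170 (log2 ratio -2.93), and 1.31 to 3.36 in the remaining libraries. Cs1g13640 had the largest ratio at 30 DAFB, with 0.85 (CK30) and 6.11 (RD30) and a log2 ratio of 2.85. Later it had 3.75 (CK80), 2.37 (RD80), 0.77 (CK170), and 0.61 (RD170). Cs1g13700 had 4.37 (CK30), 10.1 (RD30), 23.8 (CK80), 19.8 (RD80), 9.11 (CK170), and 16.1 (RD170), with a log2 ratio of 1.20 at the first stage. Cs1g13690 had 10.6, 20.8, 30.4, 25.4, 12.8, and 17.2 in that order, and stayed under 2-fold at each stage.

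**Figure D4:**
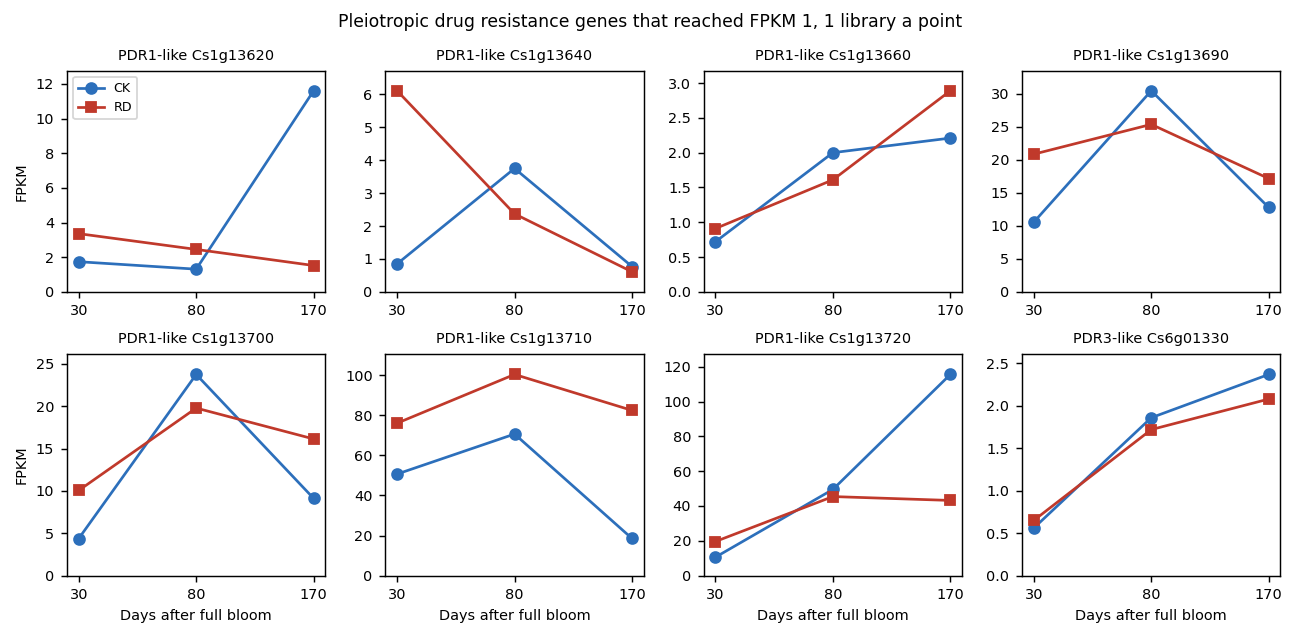
FPKM of the 8 genes described as pleiotropic drug resistance proteins that reached an FPKM of 1. CK peel (blue circles) and RD peel (red squares) are shown at 30, 80, and 170 DAFB, with 1 pooled library per point and an axis from 0 in each panel. At 170 DAFB the CK value is far below RD for Cs1g13710 (18.5 and 82.5) and far above it for Cs1g13720 (116 and 43.2) and Cs1g13620 (11.6 and 1.52).

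ABCG34 secretes the defence compound camalexin in Arabidopsis. A pair of ABCG34-like genes with neighbouring numbers took different courses. Cs6g15280 had 6.37 (CK30), 10.9 (RD30), 4.19 (CK80), 8.22 (RD80), 84.6 (CK170), and 114 (RD170), so that both mature peels were far above all younger ones and did not differ 2-fold from each other. Cs6g15290 had 6.98 (CK30), 6.80 (RD30), 27.7 (CK80), 9.41 (RD80), 10.9 (CK170), and 2.33 (RD170). It was lower in RD peel at 80 DAFB (log2 ratio -1.56) and at 170 DAFB (-2.23).
The ABCG22-like genes Cs6g13330 and Cs6g13326, named after a gene of stomatal control in Arabidopsis, were highest in RD80 with 1.85 and 1.51. In CK80 they had 0.58 and 0.33 (log2 ratios 1.67 and 2.19). They carry neighbouring numbers and share their best match, and may be parts of 1 gene.

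Subfamily C had single members with large differences at maturity. Whether each of them is a vacuolar carrier was not checked. ABCC2 loads conjugates into the vacuole in Arabidopsis. The ABCC2-like gene Cs2g09550 had 10.5 (CK30), 12.9 (RD30), 17.7 (CK80), 19.7 (RD80), 38.1 (CK170), and 21.9 (RD170), and did not differ 2-fold between the peels. ABCC3, which carries breakdown products of chlorophyll in Arabidopsis, had several matches. ABCC3-like Cs7g10200 had 1.05 (CK30), 0.57 (RD30), 1.40 (CK80), 2.66 (RD80), 12.2 (CK170), and 0.84 (RD170). With a log2 ratio of -3.86 this was the largest difference between the peels among expressed members, and it rested on the value of CK170. ABCC3-like Cs4g09130 had 0.11 (CK30), 0.67 (RD30), 5.12 (CK80), 4.55 (RD80), 8.06 (CK170), and 11.6 (RD170). ABCC3-like Cs4g09140 was the member that differed 2-fold at all 3 stages: it had 0.56 (CK30), 1.66 (RD30), 3.18 (CK80), 1.17 (RD80), 3.25 (CK170), and 1.08 (RD170), with log2 ratios of 1.57, -1.44, and -1.59. It was thus higher in RD peel at 30 DAFB and lower afterwards.
ABCC9-like Cs1g02710 was close in both peels at 30 DAFB (7.61 and 8.02) and 80 DAFB (11.3 and 13.7), and had 16.0 in CK170 and 42.2 in RD170 (log2 ratio 1.40). ABCC10-like Cs9g18660 had 9.66, 8.88, 8.92, and 8.80 in the 4 younger libraries, and 22.1 in CK170 and 5.02 in RD170 (log2 ratio -2.14). ABCC10-like Cs5g02710 had 3.24 (CK30), 7.17 (RD30), 3.13 (CK80), 2.07 (RD80), 0.54 (CK170), and 1.31 (RD170). Its log2 ratio was 1.15 at 30 DAFB and 1.28 at 170 DAFB. ABCC10-like Cs9g05170 had 1.61 in CK80 and 0.72 in RD80 (log2 ratio -1.16), and 1.04 and 0.36 at 170 DAFB.
ABCC8-like Cs1g18450 and Cs1g18460, again with neighbouring numbers, went opposite ways at maturity. Cs1g18450 had 0.65 in CK170 and 3.61 in RD170 (log2 ratio 2.47), and Cs1g18460 had 8.49 and 3.57 (-1.25). In CK30 and RD30 the former was nearly absent with 0.04 and 0.13.

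**Figure D5:**
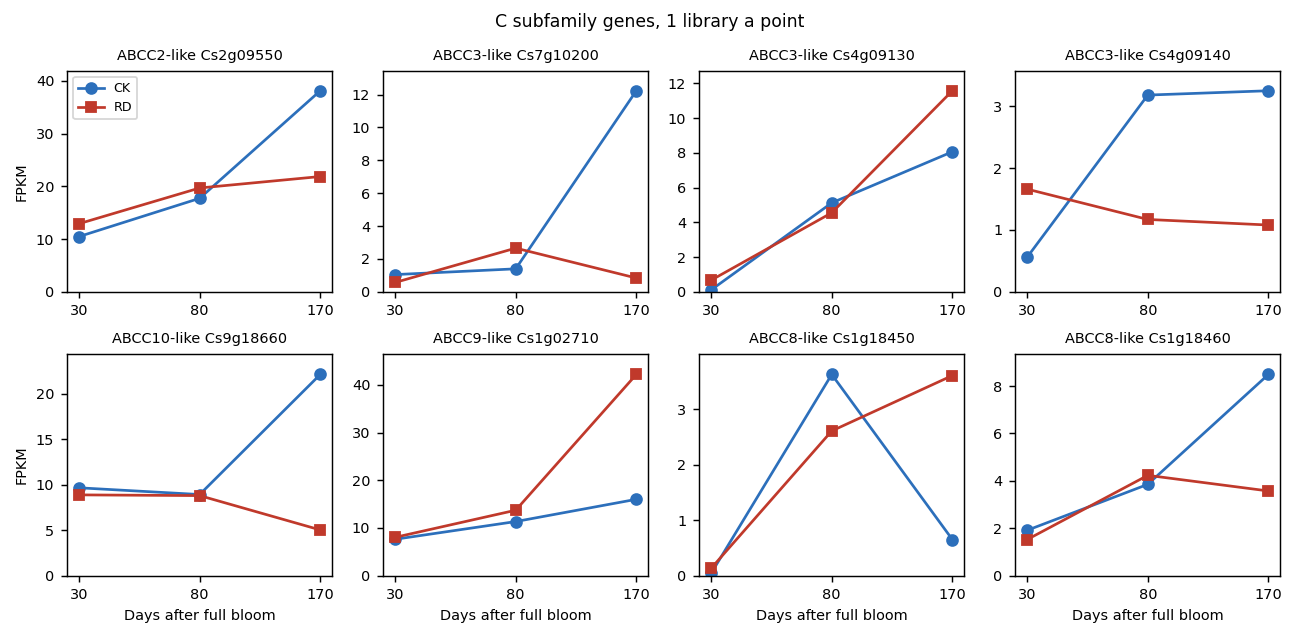
FPKM of 8 subfamily C genes in CK peel (blue circles) and RD peel (red squares) at 30, 80, and 170 DAFB, with 1 pooled library per point and an axis from 0 in each panel. CK170 is the highest value for Cs7g10200, Cs9g18660, Cs1g18460, and Cs2g09550, and RD170 for Cs1g02710 and Cs4g09130.

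Enzymes that make conjugates for subfamily C carriers were counted beside it. Of glutathione transferases, 34 were expressed at 30 DAFB (17 higher in RD peel, 0 lower), 34 at 80 DAFB (0 higher, 1 lower), and 33 at 170 DAFB (1 higher, 8 lower). Thus 50% were higher in young peel, beside 25.6% of all genes, and 24.2% were lower in mature peel, beside 10.1%. MATE carriers, another family of metabolite exporters, had 13 expressed genes at 30 DAFB (6 higher, 0 lower), 15 at 80 DAFB (0 higher, 0 lower), and 16 at 170 DAFB (0 higher, 6 lower). These were 46.2% higher in young peel and 37.5% lower in mature peel, beside the same background. With the median shift of young peel (log2 ratio 0.43) subtracted, 2 of 13 MATE carriers were higher and 1 lower. Of the 34 glutathione transferases, 12 were still higher and 1 was lower. Among the 17419 genes expressed at 30 DAFB, 2421 remained higher. The early excess thus held for glutathione transferases, whereas MATE carriers came close to the background.

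Several abundant members varied little between the peels, whereas ABCB15-like Cs6g20270 and Cs6g20280 each differed 2-fold at a single stage. ABCB25 exports from mitochondria in Arabidopsis, and ABCB25-like Cs5g12150 had 20.3 to 22.4 in the 4 younger libraries, 32.1 in CK170, and 25.9 in RD170. ABCF4-like Cs1g13980 lay between 26.3 and 29.9 in all libraries. ABCF3-like Cs5g01810 had 31.3 to 40.5 up to 80 DAFB and 50.1 and 56.1 at 170 DAFB. ABCB15-like Cs6g20270 was higher in RD peel at each stage, with 24.9 (CK30), 51.8 (RD30), 23.1 (CK80), 37.0 (RD80), 52.2 (CK170), and 82.6 (RD170), but its ratio reached 2-fold at 30 DAFB alone (log2 ratio 1.06). Relative to the median of all genes, its log2 ratios were 0.62, 0.59, and 0.77 at 30, 80, and 170 DAFB, under 2-fold at each stage. ABCB15-like Cs6g20280 had 0.33 in CK170 and 1.07 in RD170 (log2 ratio 1.70).

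CK170 stood apart for a number of members. In 9 of the 62 (14.5%), the FPKM of CK170 was at least 2-fold above that of every other library, beside 3.64% of all genes that reached an FPKM of 1. This count was made after the values were seen. These genes were ABCB4-like orange1.1t01769, ABCC3-like Cs7g10200, ABCC8-like Cs1g18460, ABCC10-like Cs9g18660, PDR1-like Cs1g13620 and Cs1g13720, ABCG11-like Cs5g17290, ABCG20-like Cs6g05280, and ABCG21-like Cs7g12620. By this definition they are among the 14 members lower in RD peel at 170 DAFB, and their difference rests on that 1 pool.

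In the development of CK peel, more members were higher than lower at the later stage, most clearly from CK30 to CK80. From CK30 to CK80, 23 of 56 expressed members were higher (41.1%, beside 23.4% of all genes) and 2 were lower (3.57%, beside 9.06%). From CK80 to CK170, 18 of 56 were higher (32.1%, beside 14.8% of all genes) and 12 were lower (21.4%, beside 17.5%). In RD peel, 14 of 61 were higher from RD30 to RD80 (23.0%, beside 7.15% of all genes) and 5 were lower (8.20%, beside 9.44%). From RD80 to RD170, 5 of 58 were higher (8.62%, beside 8.77% of all genes) and 9 were lower (15.5%, beside 17.7%). The last step of RD peel was thus near the background, whereas the first step had a larger share of higher members than all genes in both peels. These steps share their libraries with the comparisons of RD and CK and do not add independent evidence.
The largest increase from CK30 to CK80 was in ABCC8-like Cs1g18450 (log2 ratio 6.50, from the 0.04 of CK30), followed by ABCC3-like Cs4g09130 (5.54) and ABCB13-like Cs3g26380 (2.97). The same genes led from RD30 to RD80, where the first 2 had log2 ratios of 4.33 and 2.76 and the last was 8.03-fold higher. ABCB13-like Cs3g26380 had 0.89 (CK30), 6.96 (CK80), 1.57 (RD30), and 12.6 (RD80). Of the 8 PDR genes expressed at this step in CK peel, 6 were higher at 80 DAFB and 0 were lower. Toward maturity, ABCG34-like Cs6g15280 led in both peels (log2 ratio 4.34 from CK80 to CK170 and 3.79 from RD80 to RD170). It was followed in CK peel by PDR1-like Cs1g13620 (3.15) and ABCC3-like Cs7g10200 (3.13), and in RD peel by ABCC9-like Cs1g02710 (1.62) and ABCG21-like Cs7g12620 (1.43). The largest decreases to maturity were in ABCC10-like Cs5g02710 (-2.54), ABCC8-like Cs1g18450 (-2.48), and PDR1-like Cs1g13640 (-2.28) in CK peel, and in ABCG22-like Cs6g13326 (-2.15), ABCG34-like Cs6g15290 (-2.01), and PDR1-like Cs1g13640 (-1.96) in RD peel.

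Markers of tissues within the peel differed between the libraries as well. The summed FPKM of 7 chlorophyll a-b binding genes, which mark green tissue, was 4833 (CK30), 9912 (RD30), 12876 (CK80), 11943 (RD80), 125 (CK170), and 1201 (RD170). That of 13 vascular markers was 177, 80.7, 114, 94.1, 120, and 49.1 in the same order, and that of 17 oil gland markers 955, 1371, 1301, 1236, 775, and 745. Of the green tissue markers, 6 of 7 expressed genes were higher in RD peel at 30 DAFB and 4 of 6 at maturity. The vascular sums did not reflect most of their members: at 30 DAFB 0 of 7 expressed markers were higher and 1 was lower (median log2 ratio 0.06), and at maturity 2 of 11 were higher and 1 was lower (median -0.08). Oil gland markers had 2 higher and 3 lower of 10 in young peel, and 1 higher and 1 lower of 9 in mature peel. Of 2 epidermis markers, 1 was expressed, with sums between 5.06 and 8.60. Of 3 seed markers, 1 was expressed, with sums between 7.83 and 17.4. Heat shock genes, taken as signs of handling, summed to 2670 (CK30), 9651 (RD30), 3531 (CK80), 2178 (RD80), 3446 (CK170), and 6535 (RD170). The part of tissue markers and heat shock genes in the differences of ABC transporters was not tested. In peel as a whole, fewer cells of a type and less RNA per cell cannot be told apart.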

How the data were processed

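Peel of 6 pooled libraries was sequenced. The authors removed reads with adapters or of low quality, aligned the rest to the Citrus sinensis genome with Bowtie and BWA, and deposited FPKM values per gene, made with RSEM and rounded to 2 decimals. Versions of these tools are not given in the sources used here. No read counts were used, so depth per gene is not known. The lowest values stood in steps: ABCG20-like Cs5g18680 had 0.04, 0.08, or 0.16 where above 0. Whether 1 step is 1 read could not be settled. Ratios of RD to CK were taken from the deposited FPKM without a pseudocount. Genes were counted as higher or lower at 2-fold with an FPKM of at least 1 in the higher library. The rule was run on all genes, and also on simulated data. Depth and the spread between pools were assumed in that simulation, as no replicate gives the spread, so it yields no error rate for these counts. With 1 library per group, no test was made. The study's own test on reads was not run. Members named were the 10 with the highest mean, those with the largest ratios in each comparison, any counted at all 3 stages, and expressed matches of transporters with known cargo (46 in all). A few others, such as ABCG10-like Cs2g15630 and ABCF4-like Cs1g13980, were named after their values were seen. Lists of wax and cutin synthesis, lipid-transfer proteins, auxin carriers, MATE carriers, glutathione transferases, and tissue markers rest on gene descriptions. Members and lists were chosen with earlier results of these data known. Python 3.11.15 with pandas 2.3.3 was used. Alternatives were a pseudocount of 1, other FPKM limits, scaling to the median or upper quartile, and other member rules.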

Additional observations from a re-analysis of the deposited data

Results flagged for a closer look

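RD peel was at least 2-fold above CK peel at one stage and 2-fold below it at a later stage in 4 members. How many of all genes did so was not counted, so whether this number is unusual cannot be said. The difference between the stages was not tested, because each peel had 1 library per stage. ABCC3-like Cs4g09140 was higher in young peel (log2 ratio 1.57 at 30 DAFB) but lower at 80 DAFB (-1.44) and 170 DAFB (-1.59). ABCG13-like Cs2g30660 had 2.08 at 30 DAFB and -1.85 at 170 DAFB, and ABCG20-like Cs6g05280 had 1.74 and -1.48. ABCG11-like Cs5g17290 had 1.36 at 80 DAFB and -1.63 at 170 DAFB. With each stage centred on the median of all genes, the same 4 members passed 2-fold in both directions, as did 2 more (Cs4g17100 and Cs6g04450). With a pseudocount of 1 FPKM, Cs4g09140 (0.77 at 30 DAFB and -0.95 at 80 DAFB) and Cs2g30660 (0.92 at 30 DAFB and -0.68 at 170 DAFB) no longer did so, and Cs6g05280 and Cs5g17290 remained. With a minimum of 5 FPKM in the higher library, Cs5g17290 alone remained.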

How the results depend on the processing

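No paired analysis was possible because each group had 1 library, and so no replicate numbers to pair. A fit over all 6 libraries with the stage as a block was not run. Counts are given as compared with those of the report. With a pseudocount of 1 FPKM, 6 members were higher at 30 DAFB, 1 was higher and 1 lower at 80 DAFB, 1 was lower from CK30 to CK80, 3 from RD30 to RD80, and 3 from RD80 to RD170. Without a minimum FPKM, 25 were higher and 2 lower at 30 DAFB, 10 and 5 at 80 DAFB, and 5 were lower from CK30 to CK80. With a minimum FPKM of 5, 6 were higher at 30 DAFB, 1 higher and 1 lower at 80 DAFB, and 4 higher at 170 DAFB. On that limit 12 were higher and 1 lower from CK30 to CK80, 7 were lower from CK80 to CK170, 7 higher and 2 lower from RD30 to RD80, and 2 lower from RD80 to RD170. With ratios centred on the median of all genes, 30 DAFB had 7 higher and 5 lower members, and with upper quartile scaling 2 were lower at that stage. Under the narrow member rule (descriptions with a subfamily letter and number) 1 was lower from CK30 to CK80 and 7 from CK80 to CK170. Without the 2 genes matching the Medicago protein, an alternative added after the data were seen, 1 was lower from CK30 to CK80. The wide member rule moved no count by over 1.5 times. As each value rests on 1 pool, the spread between pools limits every count.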
